A study of Mus musculus with 2 samples.

Results

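The 35 genes described here are endothelial and lymphatic genes, chosen as a fixed list of symbols, and all 35 were found among the 43346 genes of the expression tables. They were measured by total RNA-seq of embryonic mouse kidney, an organ whose vessels form while nephrons are still being laid down. The 2 libraries are biological replicates of 1 group, E14.5 kidney of strain B6NCrl, and no other condition, treatment or genotype was compared. Each library came from 2 kidneys of 1 pup, the pups were collected on different days, and the labels call the sex of each sample mixed while naming a single pup. Each was made from 10 ng of RNA longer than 200 nt with added spike-in RNAs, and the labels give the material as whole kidney tissue.

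Endothelial cells line all blood and lymphatic vessels. They are held together by junction proteins such as VE-cadherin, are kept quiescent or made to remodel by the angiopoietin and TIE receptor system, and take on their identity under transcription factors of the ETS family and their partners. In the kidney they build the glomerular and peritubular capillaries, the arteries that feed them and, later in development, a network of lymphatic vessels whose identity depends on PROX1.

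Levels are in TPM, a transcript's abundance corrected for its length and scaled to a fixed sum in each library, so they can be compared between genes. With 1 group there is no contrast to test, and differences between genes are set against the spread of the 2 libraries. The tables held 29718428 expected counts in replicate 1 and 29204212 in replicate 2. The members together took 48782 counts, 0.172% of all gene counts, in replicate 1 and 42984 counts, 0.155%, in replicate 2. In a whole organ, fewer cells of a type and less RNA per cell cannot be told apart.

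Of the 35 members, 34 reached 1 TPM in both libraries, the floor used here for detection. The same floor was reached by 33.1% of all 43346 genes and by 59% of 21474 protein-coding genes. The member below it was Prox1. The median member had a mean of 17.7 TPM, close to the median of 18.3 TPM over 12669 detected protein-coding genes, and 17 members lay above that median. Mean levels spanned 261-fold, with 2 members at 100 TPM or more, 19 between 10 and 100 TPM, 13 between 1 and 10 TPM and 1 below 1 TPM. When the members were ordered by mean level, the ranges of the 2 libraries overlapped in 25 of the 34 neighbouring pairs. Such a range does not compare 2 genes within a library, and neighbours are the pairs closest in level. Some overlapping pairs kept their order in both libraries, as Aplnr above Esam did, so an overlap alone does not leave the order unresolved. Ramp2, Egfl7 and Plvap held the first 3 places in both libraries, and Tal1 and Prox1 the last 2, with no overlap with their neighbours.

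**Figure D1:**
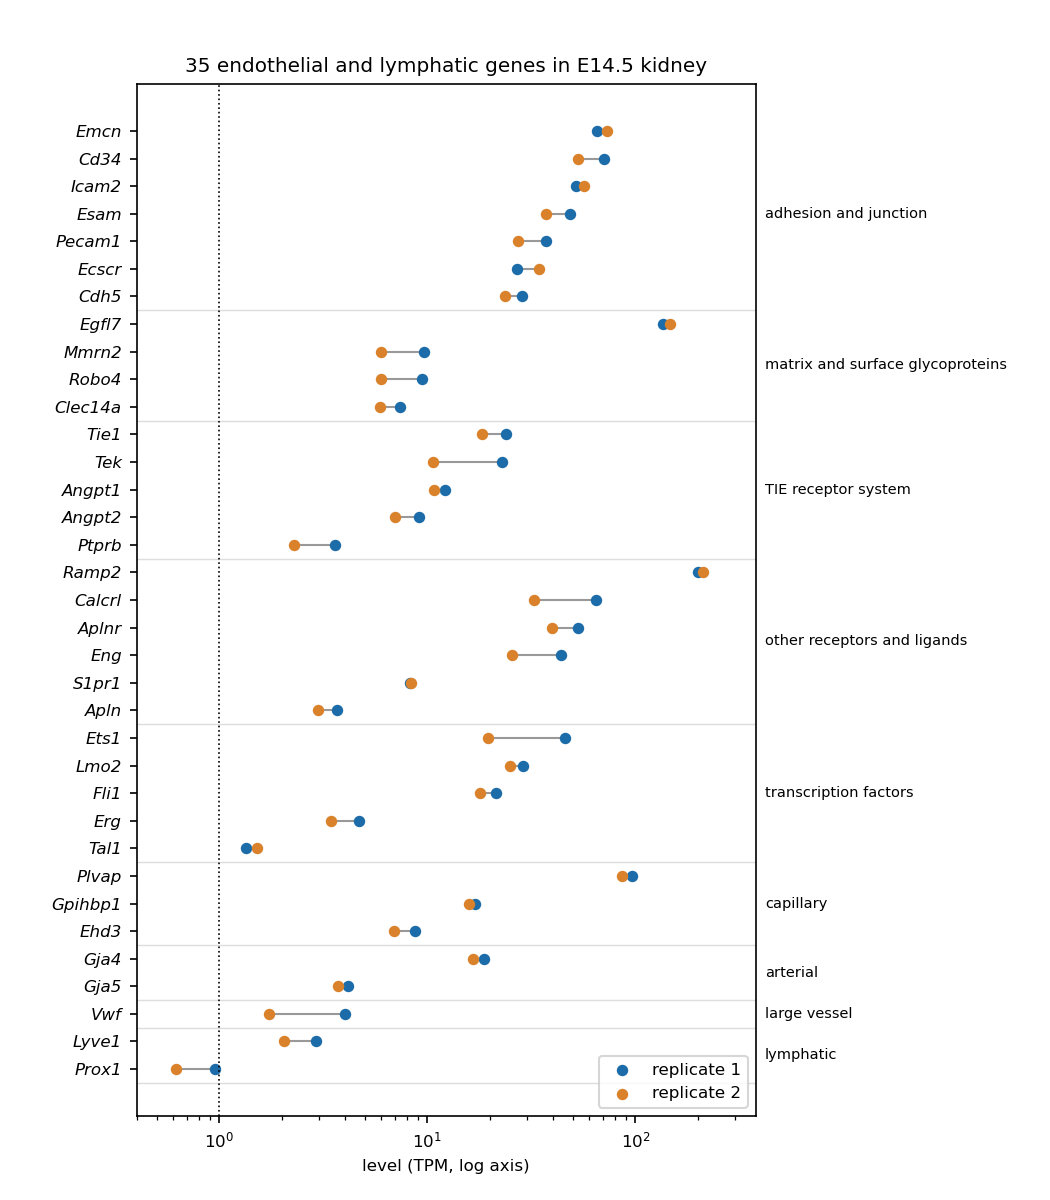
Level of each of the 35 members in TPM on a log axis, grouped by role, with 1 point for each library and a line joining the replicates. The dotted line is 1 TPM. Ramp2, at 199 TPM in replicate 1 and 211 TPM in replicate 2, is the highest, and Prox1 is the only member below the line in both libraries.

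The 7 adhesion and junction genes summed to 330 TPM in replicate 1 and 305 TPM in replicate 2. Emcn, which encodes the sialomucin endomucin of capillary and venous endothelium, had the highest mean of them. It had 65.3 TPM in replicate 1 and 73.3 TPM in replicate 2 (69.3 ± 5.67, SD, n = 2). Cd34, a sialomucin of endothelial and blood progenitor cells, had 71.0 TPM in replicate 1, above Emcn, and 52.8 TPM in replicate 2, below Emcn. Icam2, a ligand for leukocyte integrins, had 52.0 and 56.9 TPM in replicates 1 and 2, and the junctional immunoglobulin-family gene Esam had 48.5 and 37.1 TPM in the same order. The ranges of Emcn, Cd34 and Icam2 overlapped along the order, and all 3 lay above Esam in both libraries.

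Pecam1 (chr11:106654217-106750628, minus strand, mm10), the platelet endothelial adhesion molecule, had 37.3 TPM in replicate 1 and 27.2 TPM in replicate 2. Ecscr, an endothelial surface protein of cell migration, had 27.0 and 34.3 TPM in replicates 1 and 2. Cdh5 (chr8:104101625-104144511, plus strand), the gene of VE-cadherin, had 28.5 and 23.7 TPM in replicates 1 and 2. The ranges of these 3 genes overlapped. Pecam1 lay above Cdh5 in both libraries, while Ecscr was the lowest of the 3 in replicate 1 and the highest in replicate 2. Cdh5 stood at 0.765 of the level of Pecam1 in replicate 1 and 0.869 in replicate 2, a ratio that varied less than either level.

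Among the matrix and surface glycoproteins, Egfl7 stood far above the other 3. Egfl7 (chr2:26580014-26593120, plus strand), a secreted protein that endothelial cells lay into their matrix, had 136 TPM in replicate 1 and 147 TPM in replicate 2 (141 ± 7.64, SD, n = 2). Its 5 transcripts with a full coding sequence held 40.3% of that level in replicate 1 and 35.9% in replicate 2. The gene level is thus not a level of full coding transcripts. Mmrn2, an elastin microfibril interface protein of the endothelial matrix, had 9.65 and 5.97 TPM in replicates 1 and 2. Clec14a, a surface lectin that binds the MMRN2 protein, had 7.43 and 5.95 TPM, and Robo4, the endothelial roundabout receptor, had 9.42 and 6.01 TPM. All 3 were higher in replicate 1 and their ranges overlapped. Clec14a stood at 0.770 of Mmrn2 in replicate 1 and 0.997 in replicate 2.

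The 5 genes of the TIE system summed to 71.5 TPM in replicate 1 and 49.0 TPM in replicate 2. Tie1, an orphan receptor that modulates the angiopoietin receptor, had 23.9 TPM in replicate 1 and 18.4 TPM in replicate 2. Tek (chr4:94739289-94874976, plus strand), which encodes the angiopoietin receptor TIE2, had 22.8 TPM in replicate 1 and 10.6 TPM in replicate 2, a larger spread than that of Tie1. The ratio of Tie1 to Tek was accordingly 1.05 in replicate 1 and 1.74 in replicate 2. Angpt1, the activating ligand, which mural and mesenchymal cells are known to make, had 12.1 and 10.8 TPM in replicates 1 and 2. Angpt2, the context-dependent antagonist made by endothelium, had 9.08 and 6.99 TPM. Angpt1 lay above Angpt2 in both libraries, by 1.33-fold in replicate 1 and 1.54-fold in replicate 2. Ptprb, the endothelial phosphatase VE-PTP that acts on TIE2, had 3.61 and 2.28 TPM in replicates 1 and 2 and was the lowest of the 5.

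Of the other receptors and ligands, Ramp2 and Calcrl encode the 2 chains of the adrenomedullin receptor, which blood and lymphatic vessels need in development. Ramp2 (chr11:101246028-101259546, plus strand) had 199 TPM in replicate 1 and 211 TPM in replicate 2 (205 ± 8.39, SD, n = 2), which placed it above 95.0% of detected protein-coding genes. It shares 1103 exonic bases on the same strand with Vps25, which had 121 TPM in replicate 1 and 120 TPM in replicate 2, so its level depends on how reads were shared out between them. Calcrl had 64.9 TPM in replicate 1 and 32.5 TPM in replicate 2. Ramp2 exceeded Calcrl by 3.07-fold in replicate 1 and 6.50-fold in replicate 2, so the gene level of Ramp2 was higher in both libraries by an unstable excess. These levels include transcripts without a coding sequence, Ramp2-205 at 70.45 and 76.33 TPM and Calcrl-203 at 22.73 and 7.75 TPM. Ramp2-204, with the longest coding sequence of Ramp2, had 57.3 and 47.15 TPM, so the ratio of the genes is not a ratio of the chains.

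Aplnr, the apelin receptor, had 52.8 TPM in replicate 1 and 40.0 TPM in replicate 2. Its ligand gene Apln, a marker of sprouting tip cells, had 3.66 and 2.97 TPM. The receptor exceeded the ligand by 14.4-fold in replicate 1 and 13.5-fold in replicate 2, a ratio that differed little between libraries. Eng (chr2:32646595-32682669, plus strand), the TGF-beta co-receptor endoglin, had 44.0 TPM in replicate 1 and 25.6 TPM in replicate 2. S1pr1, the sphingosine-1-phosphate receptor that stabilises vessels, had 8.22 and 8.34 TPM in replicates 1 and 2, the closest agreement between libraries of any member by the difference in TPM.

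Among the 5 transcription factors the ETS genes Ets1 and Fli1 and the LIM adaptor Lmo2 were several-fold above Erg and Tal1. Ets1 (chr9:32636221-32757820, plus strand), an ETS factor also made outside endothelium, had 45.7 TPM in replicate 1 and 19.7 TPM in replicate 2. Fli1 had 21.4 TPM in replicate 1 and 18.0 TPM in replicate 2, and its near relative Erg, the ETS factor most closely tied to endothelial identity, had 4.70 and 3.43 TPM. Fli1 exceeded Erg by 4.55-fold in replicate 1 and 5.23-fold in replicate 2. Lmo2, which bridges TAL1 to its DNA-binding partners, had 28.9 and 24.9 TPM in replicates 1 and 2. Tal1, the basic helix-loop-helix factor of blood and endothelial progenitors, had 1.35 and 1.51 TPM. Lmo2 exceeded Tal1 by 21.4-fold in replicate 1 and 16.5-fold in replicate 2.

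The 5 listed partners of the TAL1 and LMO2 complex were all detected. Tcf3, the E-protein dimer partner of TAL1, had 130 TPM in replicate 1 and 103 TPM in replicate 2, and the scaffold gene Ldb1 had 63.7 and 74.0 TPM. The lowest partner was the corepressor Cbfa2t3, at 2.91 and 3.12 TPM in replicates 1 and 2. Tal1 lay below each of the 5 partners in both libraries.

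The 3 capillary genes were led by Plvap, which forms the diaphragms of fenestrated endothelium and had 96.0 TPM in replicate 1 and 86.3 TPM in replicate 2. Gpihbp1, which carries lipoprotein lipase across capillary endothelium, had 16.9 and 15.9 TPM in replicates 1 and 2. Ehd3, a membrane-trafficking gene enriched in glomerular endothelium, had 8.74 and 6.95 TPM. The ranges of the 3 did not overlap. Plvap exceeded Pecam1 by 2.57-fold in replicate 1 and 3.17-fold in replicate 2.

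Both arterial members were connexins. Gja4 (connexin 37) had 18.7 TPM in replicate 1 and 16.7 TPM in replicate 2, and Gja5 (connexin 40) had 4.17 and 3.70 TPM. The ratio of Gja4 to Gja5 was 4.48 in replicate 1 and 4.50 in replicate 2. In replicate 1, 0.85 TPM of Gja5 came from 5.06 counts given to Gja5-202, a transcript of 405 nt with 0 counts in replicate 2. The main transcript, Gja5-201, had 3.32 and 3.70 TPM in replicates 1 and 2, so the close match of the ratios rests in part on those few counts. Gja5 shares 165 exonic bases on the opposite strand with Gpr89, which had 33.0 TPM in replicate 1 and 28.2 TPM in replicate 2, and no source used here says whether strand entered the counting. Vwf, the von Willebrand factor of larger vessels and platelets, was low, at 4.01 TPM in replicate 1 and 1.73 TPM in replicate 2.

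The 2 lymphatic members were low, with a sum of 3.87 TPM in replicate 1 and 2.66 TPM in replicate 2. Lyve1 (chr7:110850607-110863239, minus strand), a hyaluronan receptor of lymphatic endothelium that some tissue macrophages also carry, had 2.92 TPM in replicate 1 and 2.04 TPM in replicate 2, from 143 and 115 counts. Prox1 (chr1:190118035-190170714, minus strand), the master transcription factor of lymphatic identity, had 0.95 TPM in replicate 1 and 0.62 TPM in replicate 2, from 135 and 95 counts. Its main transcript is 7913 nt long, and a TPM divides counts by length, so a level under 1 TPM still rested on that many counts. The deposited bounds of the TPM estimate were 0.814 to 1.24 in replicate 1 and 0.501 to 0.812 in replicate 2, so in replicate 1 they include the floor. The 2 members above it in the order, Tal1 and Lyve1, passed the floor in both libraries. Lyve1 stood at 0.0783 of Pecam1 in replicate 1 and 0.0749 in replicate 2, and at 3.07 and 3.29 times Prox1 in replicates 1 and 2.

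Other lymphatic genes spanned a wide range. All 8 genes of a further lymphatic list were detected, with a sum of 145 TPM in replicate 1 and 126 TPM in replicate 2, and the same list has members that other kidney cells also make. Ccl21a, a chemokine of lymphatic endothelium whose near-identical gene copies make its count uncertain, had 37.6 TPM in replicate 1 and 36.4 TPM in replicate 2. Pdpn, podoplanin of lymphatic vessels and of podocytes, had 38.3 and 35.5 TPM. The lowest was the scavenger receptor Stab2, at 2.97 and 1.26 TPM in replicates 1 and 2.

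Further vascular endothelial genes had a median near that of the members, and both lay near the median of 18.3 TPM over detected protein-coding genes. All 12 genes of another vascular endothelial list were detected, with a median of 15.2 TPM, against 17.7 TPM for the 35 members. Cldn5, a tight-junction claudin, had 50.5 TPM in replicate 1 and 65.3 TPM in replicate 2. Mecom, a zinc-finger factor that kidney tubules also make, had 70.0 and 38.1 TPM, and the adhesion receptor gene Adgrf5 was the lowest, at 6.71 and 3.01 TPM. All 8 genes of an arterial and venous list were detected too, with a higher median of 27.9 TPM. Nr2f2, a venous factor that stromal cells make as well, had 170 TPM in replicate 1 and 155 TPM in replicate 2, the semaphorin and VEGF receptor Nrp1 had 58.6 and 45.2 TPM, and the Notch ligand Dll4 was the lowest, at 6.50 and 3.70 TPM.

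Markers of other cells that share some member genes were also detected, and their part in the members' levels was not tested. The 9 macrophage and leukocyte markers summed to 131 TPM in replicate 1 and 101 TPM in replicate 2, and all 9 were detected, with Lyz2 at 42.0 and 27.2 TPM, C1qb at 30.6 and 27.8 TPM, and Adgre1 lowest at 3.80 and 1.30 TPM in replicates 1 and 2. Such cells are known to make Pecam1, Fli1 and Ets1, and some of them Lyve1. The 5 megakaryocyte and platelet markers summed to 33.6 TPM in replicate 1 and 33.1 TPM in replicate 2, with Pf4 at 22.3 and 24.5 TPM, Itga2b at 4.55 and 4.85 TPM, and Gp1bb lowest at 2.02 and 1.08 TPM. Megakaryocytes and platelets are known to carry Vwf and Pecam1.

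Of 5 erythroid markers 3 were detected, and the list summed to 36.3 TPM in replicate 1 and 26.2 TPM in replicate 2. Alas2, of haem synthesis, was highest at 26.3 TPM in replicate 1 and 15.7 TPM in replicate 2, Epor, the erythropoietin receptor, had 6.72 and 6.60 TPM, and Gata1, the erythroid and megakaryocyte factor, was lowest at 0.38 and 0.40 TPM. The 7 mural and stromal markers were all detected and summed to 516 TPM in replicate 1 and 314 TPM in replicate 2, led by Col1a1 at 299 and 185 TPM and Acta2 at 98.1 and 55.1 TPM, with Cspg4 lowest at 8.95 and 6.57 TPM. Mural cells are known to make Angpt1.

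All 8 kidney markers were detected, at a floor that 59% of protein-coding genes also reached. Cited1 of nephron progenitors was at 131 TPM in replicate 1 and 141 TPM in replicate 2. Wt1 was at 129 and 81.5 TPM, and Ret of the ureteric tip was lowest at 11.1 and 5.07 TPM. Liver markers were near the floor, with 2 of 4 detected and a sum of 5.86 TPM in replicate 1 and 6.30 TPM in replicate 2. Apoa2 was highest at 2.78 and 4.26 TPM, Alb had 1.34 and 1.05 TPM, and Ttr was lowest at 0.73 and 0.16 TPM in replicates 1 and 2. No adrenal cortex marker of 4 was detected. Star had 0.92 and 0.97 TPM and Cyp11a1 0.68 and 0.35 TPM in replicates 1 and 2, and Cyp21a1 had 0 counts in either library, a count that allows a level of at most 0.157 TPM in replicate 1.

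**Figure D2:**
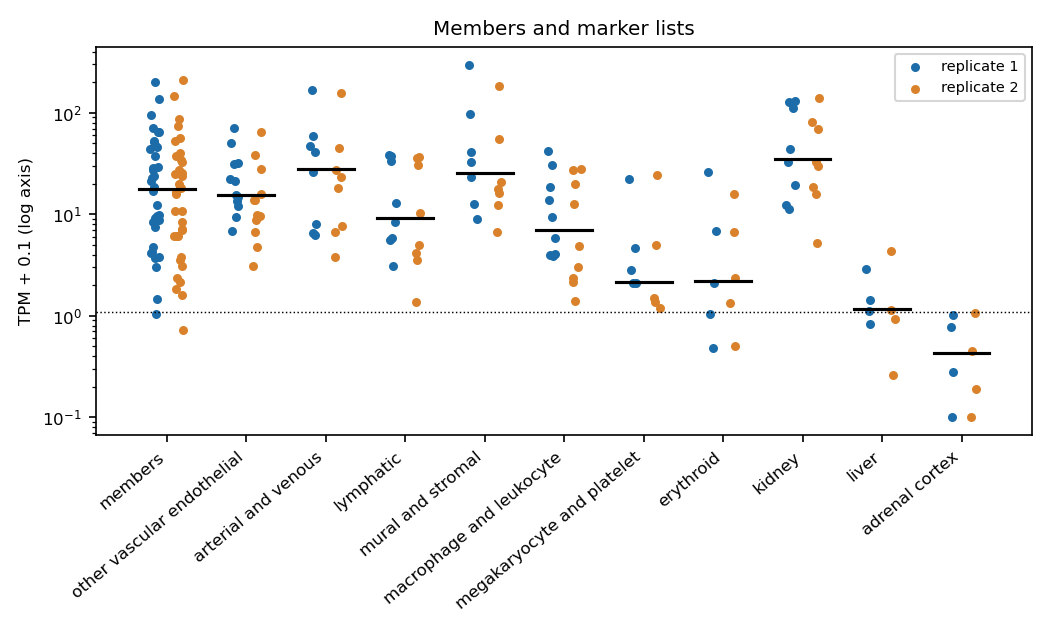
Levels of the 35 members and of 10 marker lists as TPM + 0.1 on a log axis, with 1 point for each gene and library and a bar at the median of the genes' means. The dotted line is the detection floor of 1 TPM. The members, with a median of 17.7 TPM, lie among the other vascular endothelial genes at 15.2 TPM, and the adrenal cortex markers lie below the line.

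Most members were higher in replicate 1 when compared in TPM. This held for 28 of 35, and the exceptions were Ramp2, Egfl7, Emcn, Icam2, Ecscr, S1pr1 and Tal1. The median log2((TPM + 1) ratio) of replicate 1 over replicate 2 was 0.29 over the 34 members averaging 1 TPM or more, beside 0.26 over all 15075 genes at that level. A positive median means that most of those 15075 genes were also higher in replicate 1, and their exact share was not taken. The medians of the other lists varied, from 0.70 over the other vascular endothelial genes, 0.68 over the mural and stromal markers and 0.61 over the macrophage and leukocyte markers downwards. Arterial and venous genes gave 0.43, megakaryocyte and platelet markers 0.42, and the further lymphatic list and the kidney markers 0.35 each. The median was negative for erythroid markers at -0.05, for the TAL1 and LMO2 partners at -0.08 and for liver markers at -0.14. When counts were scaled by TMM, a method that centres the bulk of genes, the medians were -0.0029 over the members and -0.0008 over all genes. On that scale 17 members were higher in each library.

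A member was called apart between the libraries when its log2((TPM + 1) ratio) reached 1 in size and the higher library had 5 TPM or more. This rule has no p-value, and it called 2 members, Ets1 at 1.18 and Tek at 1.04, both higher in replicate 1, of 27 members at that level. Over all 11480 genes at that level it called 5.56% in either direction and 4.56% as higher in replicate 1, so 2 of 27 is near the background. Both calls were lost under TMM scaling, which gave 0.90 for Ets1 and 0.78 for Tek. Calcrl, at 0.98, lay just under the limit of 1, and Vwf, at 0.88, was next but lay under 5 TPM.

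The difference between libraries moved with gene length. Over all genes, the median log2 ratio was -0.13 for effective lengths under 1000 nt and 0.54 for 4000 nt or more. Of the 5 members under 1000 nt, 1 was higher in replicate 1, with a median of -0.11. Of the 11 members between 3000 and 4000 nt, all 11 were higher in replicate 1, with a median of 0.36 beside 0.51 for all genes of that length. Of the 6 members of 4000 nt or more, 5 were higher in replicate 1, with a median of 0.38, and both Ets1 and Tek belong to them. Across the 34 members the log2 ratio correlated with log2 length at a Pearson's r of 0.58 and a Spearman's rho of 0.56, and across 15075 genes at 0.36 and 0.53. These are correlations across genes of the same 2 libraries, genes are not independent replicates, and the part of length in each member's difference was not tested.

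**Figure D3:**
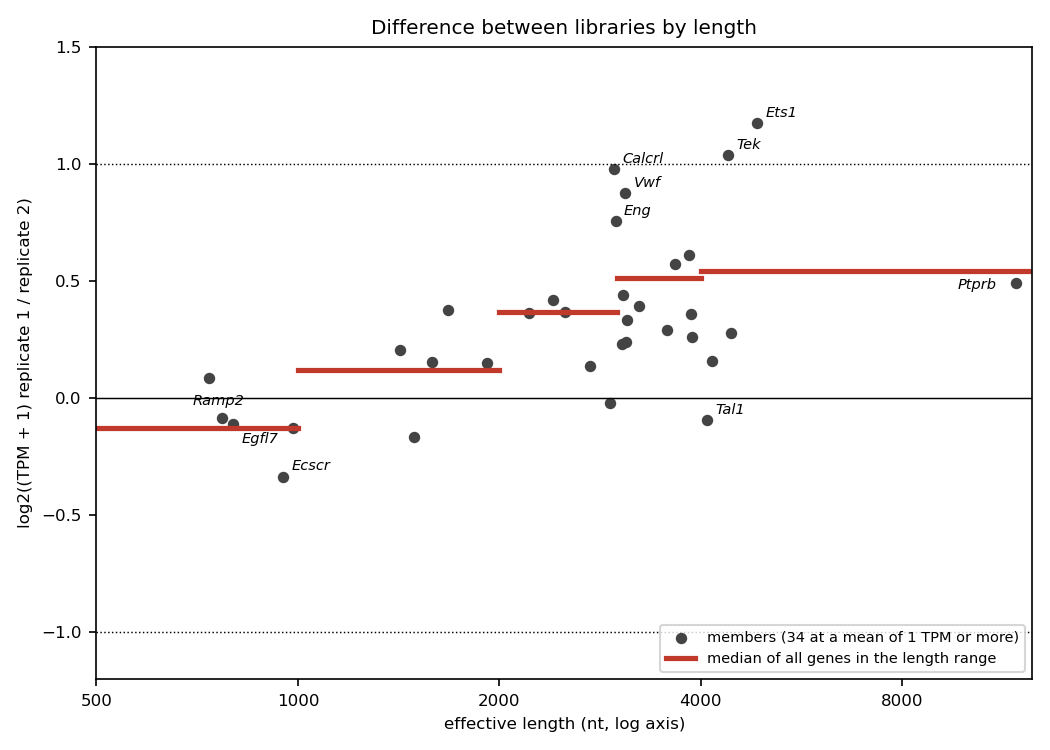
Log2((TPM + 1) ratio) of replicate 1 over replicate 2 for 34 members against effective length in nt on a log axis, with red bars at the median of all genes in 5 length ranges, the first drawn from 500 nt. Dotted lines mark a log2 ratio of 1 in either direction. Ets1 and Tek are the members above the upper line. The red bars rise from -0.13 to 0.54, while the members' medians are -0.11 under 1000 nt and 0.37, 0.36 and 0.38 in the 3 ranges from 2000 nt up.

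Transcript shares were compared next, since several members make forms that differ in structure. Of 19 members with 5 TPM or more in both libraries and at least 2 annotated transcripts, 18 had the same leading transcript in both, beside 89.2% of 7589 genes. Ets1 was almost wholly Ets1-201, at 96.8% of its TPM in replicate 1 and 95.8% in replicate 2, and Fli1 was almost wholly Fli1-201, at 94.7% and 94.8%. Ramp2 was led by Ramp2-205, annotated as a retained intron, at 35.4% in replicate 1 and 36.2% in replicate 2.

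The member whose leading transcript differed was Cd34 (chr1:194938819-194961279, plus strand). Mouse Cd34 is known to encode a full-length protein and a form with a truncated cytoplasmic tail. Cd34-201, with a coding sequence of 1146 nt, had 33.3 TPM in replicate 1 and 26.9 TPM in replicate 2, and Cd34-202, with a coding sequence of 975 nt, had 35.8 and 24.8 TPM. The longer form made up 48.2% of both in replicate 1 and 52.1% in replicate 2 (50.1% ± 2.75, SD, n = 2), so the forms were about equal. The change of leader rests on these same 2 shares, so their SD cannot judge it. The forms differ in where their last exon starts, at chr1:194959780-194959794 for Cd34-202 and chr1:194959936-194959950 for Cd34-201. The letters are shown because they are the point at which the 2 coding sequences part, with the shared exon end in lower case and the first 15 bases of each last exon in capitals. In Cd34-202 those bases end in its stop codon.
Cd34-202: acaggagaaaggctgGAGCTGGAACCTTGA
Cd34-201: acaggagaaaggctgGGTGAAGACCCTTAT

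Eng is likewise known as a long form, which predominates in endothelium, and a short form with a reduced cytoplasmic tail that arises by retention of an intron. The long-tail transcripts Eng-201 and Eng-205 had 33.8 TPM in replicate 1 and 20.1 TPM in replicate 2, and Eng-202, which retains the last intron, had 6.55 and 2.91 TPM. The long form made up 83.7% of both forms in replicate 1 and 87.3% in replicate 2 (85.5% ± 2.53, SD, n = 2). Both forms were higher in replicate 1. The sequence that only Eng-202 keeps, at chr2:32681298-32681386 on the plus strand, is shown in capitals from the first intron base to the stop codon, after 15 bases of the exon before it.
Eng-202: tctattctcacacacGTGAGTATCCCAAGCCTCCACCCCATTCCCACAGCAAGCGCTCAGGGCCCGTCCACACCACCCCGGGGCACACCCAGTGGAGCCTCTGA

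Tek has coding transcripts with and without an exon of 153 nt at chr4:94799127-94799279. The transcripts with the exon, Tek-203 and Tek-201, had 18.7 TPM in replicate 1 and 6.14 TPM in replicate 2. The transcript without it, Tek-202, had 3.66 TPM in replicate 1 and 4.21 TPM in replicate 2. The form with the exon made up 83.6% of both in replicate 1 and 59.3% in replicate 2 (71.5% ± 17.2, SD, n = 2), the widest spread of the 5 form shares measured. The higher level of Tek in replicate 1 was thus found in the transcripts with the exon and not in the other. Tek-202 also differs from the others elsewhere, so its share rests on more than this exon. The exon is shown in capitals with 15 bases of each neighbouring exon.
Tek exon: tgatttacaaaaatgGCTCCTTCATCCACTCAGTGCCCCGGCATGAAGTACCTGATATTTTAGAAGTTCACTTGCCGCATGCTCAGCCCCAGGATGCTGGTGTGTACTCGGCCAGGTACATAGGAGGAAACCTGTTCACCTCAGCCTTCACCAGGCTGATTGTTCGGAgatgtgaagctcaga

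Start sites differed in Calcrl and Lmo2. In Calcrl the transcript that starts downstream, Calcrl-202, had 35.6 TPM in replicate 1 and 20.1 TPM in replicate 2, 54.8% and 61.8% of the gene. Most of the rest was Calcrl-203, a transcript of 500 nt without a coding sequence, at 22.73 and 7.75 TPM in replicates 1 and 2. The coding transcript with an upstream start, Calcrl-201, had 6.59 and 4.66 TPM. In Lmo2 the distal start had 19.4 TPM in replicate 1 and 19.1 TPM in replicate 2, and the proximal starts had 7.91 and 4.11 TPM. The distal share of these 2 groups of starts was 71.1% in replicate 1 and 82.3% in replicate 2. As a share of the whole gene, which also holds Lmo2-204 at 1.51 and 1.67 TPM, the distal start had 67.4% and 76.8% in replicates 1 and 2, and the distal form varied less between libraries than the proximal forms did.

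**Figure D4:**
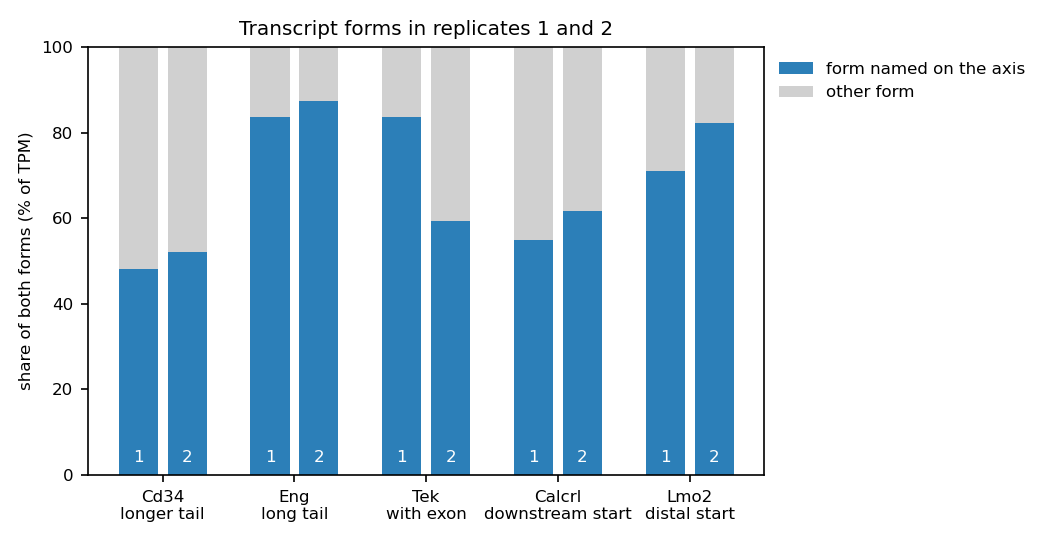
Share of the named form among both forms of 5 members, as percent of their summed TPM, with 1 bar for replicate 1 and 1 for replicate 2 in each pair (labelled 1 and 2). The form named under each pair is blue and the other is grey. The 2 bars of Tek, at 83.6% and 59.3%, lie farthest apart, and those of Eng and Cd34 lie close together.

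Some members were hard to resolve by transcript. Vwf has 12 transcripts, of which 2 are full-length at 8834 and 8817 nt, and these 2 took 131 counts in replicate 1 and 113 counts in replicate 2, or 70.9% and 76.2% of the gene's counts. They held only 0.77 TPM in replicate 1 and 0.57 TPM in replicate 2, 19.2% and 33.1% of its TPM, so most of the TPM of Vwf was assigned to shorter annotated transcripts with few counts. The shortest of these with signal in both libraries, Vwf-209 of 456 nt, held 33.0% of the TPM in each library from 9.24 counts in replicate 1 and 4.59 counts in replicate 2. Erg was led in replicate 2 by a transcript of 3062 nt that the reference annotation does not hold, at 36.1% in replicate 1 and 65.5% in replicate 2, while Erg-202 had 37.6% and 28.1%. Prox1 was mainly its longest transcript, Prox1-202 of 7913 nt, at 89.5% in replicate 1 and 79.5% in replicate 2. Tal1 was mainly Tal1-201, at 87.7% and 100% in replicates 1 and 2.

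Egfl7 also hosts the endothelial microRNA miR-126, whose hairpin lies at chr2:26591357-26591429 on the plus strand. The hairpin itself had 0 counts in both libraries, which select RNA longer than 200 nt and do not measure it. Of the 19 Egfl7 transcripts, 1 spans the hairpin unspliced, Egfl7-206, at 0.94 and 1.94 TPM in replicates 1 and 2. A group of 5 transcripts starts downstream of the hairpin and held 43.1% of the gene's TPM in replicate 1 and 44.5% in replicate 2. Of these, 3 start within 20 nt of the hairpin's end and held 17.8% and 22.0%. The leading transcript, Egfl7-202, held 25.0% in replicate 1 and 23.7% in replicate 2, and it starts well upstream. The mature miR-126a-3p (RefSeq, GRCm38.p6, chr2:26591402-26591423) is shown for its seed, bases 2 to 8, in capitals.
miR-126a-3p: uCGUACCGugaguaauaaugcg

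Promoter windows of 250 bases before a RefSeq start were found for 16 members, 22 windows in all. ETS factors bind a core that AGGAAG contains, and this motif, on either strand, was in 11 of the 22 windows, of 10 genes, beside 29.5% of 32841 windows of all genes. AGATAA, for GATA factors, was in 2 windows beside 9.99%, and CAGATG, an E-box of TAL1, was in 3 windows beside 14.4%. Windows of the same gene can share bases, so they are not independent, and a match is a description of letters. The windows of Egfl7, Eng and Emcn are shown as examples of members with the ETS motif, which is in capitals on either strand, and each stops before the first annotated exon base. They lie at chr2:26583615-26583863, chr2:32646345-32646594 and chr3:137340828-137341066, all on the plus strand (RefSeq, GRCm38.p6). The Egfl7 start carried 33.1% of the gene's TPM in replicate 1 and 30.7% in replicate 2, the Eng start 91.7% and 89.8%, and the Emcn start 100% in both.
Egfl7 upstream: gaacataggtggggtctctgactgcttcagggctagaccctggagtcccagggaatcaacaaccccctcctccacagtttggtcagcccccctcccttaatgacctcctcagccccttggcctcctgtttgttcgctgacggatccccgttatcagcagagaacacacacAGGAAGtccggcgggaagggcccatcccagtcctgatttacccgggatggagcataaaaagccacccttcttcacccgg
Eng upstream: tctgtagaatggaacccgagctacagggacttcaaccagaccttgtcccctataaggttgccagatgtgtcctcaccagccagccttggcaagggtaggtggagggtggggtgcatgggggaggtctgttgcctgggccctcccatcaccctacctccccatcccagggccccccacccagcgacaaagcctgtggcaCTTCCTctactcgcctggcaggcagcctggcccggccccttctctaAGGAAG
Emcn upstream: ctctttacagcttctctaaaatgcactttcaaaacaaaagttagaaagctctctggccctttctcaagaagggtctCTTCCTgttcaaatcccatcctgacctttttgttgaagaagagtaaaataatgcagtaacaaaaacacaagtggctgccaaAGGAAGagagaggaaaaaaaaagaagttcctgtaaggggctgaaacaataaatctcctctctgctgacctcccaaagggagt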

How the data were processed

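Total RNA from 2 E14.5 mouse kidney samples was quantified by the submitters on mm10 with GENCODE M4, per a note deposited with the files; no source used here gives the counting tool, the aligner or whether strand was used. The deposited expected counts are estimated reads per feature and need not be whole. The deposited TPM values are scaled over all features, spike-ins included, as a maximum likelihood and as a posterior mean estimate. FPKM values were deposited too, scaled to length and depth. The deposited isoform percent is a transcript's share of its gene's TPM. The deposited lower and upper bounds around a TPM value are a signal in TPM with no stated level.

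Members were matched by symbol through GENCODE M21 on GRCm38, the same assembly, where 42462 of 43346 gene IDs and all 35 members matched. Coordinates are 1-based. The members, marker lists, ratios and rules were chosen with earlier results of these data known. All members were to be named, with the 2 highest and the lowest of each other list; Transcript forms of Cd34, Eng, Tek, Lmo2, Calcrl and Vwf were grouped by exons, starts or length, and the last 2 were chosen after their values were seen.

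No test was run, since 2 replicates of 1 group give no contrast; n is 2 throughout, and SDs measure the spread of these samples only. The pseudocount of 1 TPM understates differences of low genes. A count of 0 was taken to allow 3 counts, for counting error only. Scaling used edgeR 4.0.16 (TMM) and DESeq2 1.42.0 (size factors) on expected counts rounded to whole numbers, in R 4.3.3; other work used Python 3.11.15 and pandas 2.3.3. Alternatives covered detection floors, pseudocounts, FPKM, posterior means, TPM rescaled without spike-in, mitochondrial and haemoglobin features, count scalings and each library alone.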

Additional observations from a re-analysis of the deposited data

How the results depend on the processing

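The count of 34 detected members was 35 at a floor of 0.5 TPM, 27 at 5 TPM and 33 on the FPKM scale. The median member level of 17.7 TPM was 12.6 FPKM on that other scale, and 16.7 to 21.4 TPM with a single library left in. Rescaling TPM without spike-in, mitochondrial and haemoglobin features raised summed levels, to 373 for adhesion genes, 192 for matrix genes, 407 for receptors and ligands, 135 for capillary genes and 25.3 for arterial genes. The number of members apart was 0 with TMM and 0 with DESeq2 size factors. The median log2 ratio of members was -0.0029 with TMM, which turned its sign, and 0.022 with DESeq2 size factors; these scalings also set the median of all genes near 0. With posterior means, the ratio of Gja4 to Gja5 was 4.22 and that of Lyve1 to Prox1 was 2.94. Leaving out settings that drop a library, 58 other recomputed summary values stayed within set limits. The limit was the spread between libraries for levels and ratios of genes, 1.5 times for counts, and a small fixed margin for the median log2 ratio. A single library always lies within 1 SD of the mean of 2, so those settings show no stability of levels or ratios. No paired analysis was possible because there was 1 group. With 2 libraries, an SD has little precision, and library, pup and collection day cannot be told apart.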

Other observations

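The estimate of Vwf depended on how its few reads were shared among transcripts: its posterior mean was 4.58 TPM in replicate 1 and 2.52 TPM in replicate 2, against maximum likelihood values of 4.01 and 1.73 TPM. All reads of its full-length forms were given to the transcript of 8817 nt in replicate 1, at 131 counts, and to that of 8834 nt in replicate 2, at 113 counts. By expected counts, 22 of 35 members had more in replicate 1 and 13 had more in replicate 2, against 28 and 7 by TPM. The share of all genes was not taken for either. Kdr, the main VEGF receptor of endothelium and not a member, was also apart by the same rule, at 30.9 TPM in replicate 1 and 13.7 TPM in replicate 2. It was 1 of 12 genes in its list. Cx3cr1, 1 of 9 macrophage and leukocyte markers, was apart at 5.78 and 2.26 TPM in replicates 1 and 2. Pdgfra, 1 of 7 mural and stromal markers, was apart at 41.4 and 16.2 TPM. These genes are named because the rule called them, beside 5.56% of all genes, and their calls were not repeated under TMM scaling.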
